A study of Mus musculus with 12 samples.

Results

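Type I interferon response genes were followed in HT22 cells, an immortalized mouse hippocampal neuronal line, across loss of NCOA4, iron restriction and the combination of both. The list was a fixed set of 39 gene symbols that covers the ligand interferon beta, both chains of its receptor, the transcription factors below it, sensors of foreign RNA and DNA, and the antiviral effector genes that the pathway turns on. All 39 symbols were found among the 24343 genes of the deposited tables. The rule for the list uses no measured value, but the members were chosen with earlier results of these data known. RNA was measured as FPKM, a fragment count corrected for transcript length and for library size, in 12 libraries that formed 4 groups of 3 biological replicates. Cells of the siControl group received a negative control siRNA and no chelator, and cells of the siNCOA4 group received an siRNA against Ncoa4, the gene of the receptor that carries ferritin to autophagosomes. The siControl+DFO and siNCOA4+DFO groups received the same siRNAs and 100 µM of the iron chelator desferrioxamine (DFO) for 24 h. The paper reports that viability was unchanged by DFO or NCOA4 loss alone. With both, it reports changed morphology and compromised viability. The part of this difference in the results on the members was not tested. Every group, controls included, was transfected with siRNA in liposomes, so no group shows these genes in untransfected cells. Ncoa4 was targeted with 1 siRNA product, so an effect of that siRNA and an effect of Ncoa4 loss cannot be told apart.

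Type I interferons are secreted proteins by which cells announce foreign or misplaced nucleic acid. Cytosolic sensors such as RIG-I lead, through the kinase TBK1, to active IRF3 and NF-kB, which turn on the interferon beta gene. The secreted protein binds the receptor IFNAR1-IFNAR2 on the same and on neighbouring cells, and a complex that holds STAT2 and IRF9 then binds the interferon-stimulated response element (ISRE) before many effector genes. Some of these genes, Ifit1 and Rsad2 among them, can also be turned on by IRF3 without secreted interferon. Neurons and glia both carry the receptor and respond to it.

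The stretches before the start sites of 6 members are shown because these members carried the largest changes or the clearest matches to the motifs of the pathway, and because they show how its elements are placed. Each window holds the 160 bases before the RefSeq start site on GRCm38.p6, read 5′ to 3′ on the strand of the gene. Capitals mark matches, on either strand, to the ISRE core GAAANNGAAA or, in Ifnb1, to the NF-kB element GGGANNTTCC.
Ifnb1 chr4:88522795-88522954 (-): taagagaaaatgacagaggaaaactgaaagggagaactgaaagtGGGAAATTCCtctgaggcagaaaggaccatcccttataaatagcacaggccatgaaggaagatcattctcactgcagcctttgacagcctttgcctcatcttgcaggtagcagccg
Isg15 chr4:156200819-156200978 (-): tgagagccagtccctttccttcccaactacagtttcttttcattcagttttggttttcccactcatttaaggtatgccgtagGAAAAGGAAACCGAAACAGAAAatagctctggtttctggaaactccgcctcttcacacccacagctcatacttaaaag
Oas1a chr5:120907526-120907685 (-): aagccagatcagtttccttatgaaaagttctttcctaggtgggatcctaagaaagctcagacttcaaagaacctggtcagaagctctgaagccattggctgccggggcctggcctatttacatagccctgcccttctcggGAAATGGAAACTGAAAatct
Rsad2 chr12:26456453-26456612 (-): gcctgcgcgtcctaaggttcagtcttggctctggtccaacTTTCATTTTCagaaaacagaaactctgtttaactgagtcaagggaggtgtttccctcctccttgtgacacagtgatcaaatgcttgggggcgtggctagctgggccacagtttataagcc
Ifit3 chr19:34583369-34583528 (+): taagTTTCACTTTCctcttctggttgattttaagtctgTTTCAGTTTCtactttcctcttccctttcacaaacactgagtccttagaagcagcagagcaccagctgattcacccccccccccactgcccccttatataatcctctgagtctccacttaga
Ifit1 chr19:34640729-34640888 (+): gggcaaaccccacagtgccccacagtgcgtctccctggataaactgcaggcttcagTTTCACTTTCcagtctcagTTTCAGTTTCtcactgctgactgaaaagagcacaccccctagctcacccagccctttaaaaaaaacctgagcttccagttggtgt
Ifnb1 held 1 NF-kB match and no ISRE core in this window, whereas Isg15 held 3 overlapping ISRE matches, Oas1a, Ifit3 and Ifit1 held 2 each and Rsad2 held 1. RefSeq promoters, taken as 250 bases before to 50 bases after the start site, were at hand for 29 of the 39 members. The ISRE core was present in 11 of these 29 (37.9%) and in 1079 of all 27025 genes with a promoter (3.99%). The NF-kB element was present in 3 of the 29, namely Ifnb1, Isg20 and Ifit2 (10.3%), and in 441 of all 27025 genes (1.63%). None of the 3 members with the NF-kB element had an ISRE core, so the matches of the 2 motifs did not overlap in any member. Promoters of Dhx58, Zbp1, Oas2, Mx1, Mx2, Usp18, Parp9, Parp14, Ifi27 and Rtp4 were not analysed here. A match describes the letters only and says nothing of binding in these cells.

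Ncoa4, the siRNA target, was listed at 6.02 to 6.46 FPKM in siControl, 0.770 to 0.952 in siNCOA4, 7.52 to 8.70 in siControl+DFO and 0.850 to 1.57 in siNCOA4+DFO libraries. Relative depth, estimated from the steps between low values, ran from 0.928 to 1.41 of that of siControl replicate 1, and the summed FPKM ran from 565558 to 737313. Of the neuronal markers, 2 of 10 had a siControl mean of at least 0.5 FPKM, namely Tubb3 (7.42 to 8.28 FPKM) and the postsynaptic scaffold gene Dlg4 (11.4 to 15.1 FPKM), while Rbfox3, Map2 and Snap25 were listed at 0 there. All 5 fibroblast markers reached 0.5 FPKM, and their summed level was 2832 to 3241 FPKM in siControl, 2109 to 2265 in siNCOA4, 1806 to 1877 in siControl+DFO and 1569 to 1708 in siNCOA4+DFO. Of the 11 markers of microglia and macrophages, which are strong sources of interferon, Tyrobp, C1qa, C1qb and P2ry12 were listed at 0 in all 12 libraries, and the summed level of the 11 was 11.4 to 14.2 FPKM in siControl, 5.48 to 7.31 in siNCOA4 and 3.37 to 4.88 with DFO. Most of that fall lay in Tmem119, with group means of 10.7, 4.17, 0.780 and 1.15 FPKM in siControl, siNCOA4, siControl+DFO and siNCOA4+DFO. In the same order the means of Cd68 were 1.87, 1.57, 2.22 and 2.85 FPKM, with no comparison passed, and those of Ptprc, too low to test, were 0, 0.0165, 0.0938 and 0.159 FPKM. Astrocyte markers, with 1 of 6 at a siControl mean of 0.5 FPKM, summed to 36.5 to 46.0 FPKM in siControl, 22.5 to 27.3 in siNCOA4 and 3.31 to 15.3 with DFO, and that sum was mostly Slc1a3 (group means 42.1, 24.0, 3.59 and 7.13 FPKM). Aldh1l1 went the other way, with means of 0.324, 0.811, 0.678 and 2.50 FPKM, and passed as higher than siControl in all 3 treated groups, and Gfap, too low to test, had means of 0, 0.0324, 0.199 and 0.489 FPKM. None of the 4 markers of plasmacytoid dendritic cells, of which Bst2 is also a member here, had a siControl mean of 0.5 FPKM. The part of these markers in the results on the members was not tested. Because whole cultures were measured, fewer expressing cells and less RNA per cell cannot be told apart. Gapdh, a gene with many copies in the genome, was listed at only 0.364 to 33.2 FPKM, so a low or zero entry is described as listed and is not read as absence.

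Of the 39 members, 34 reached 0.5 FPKM in at least 3 libraries and were tested with limma on log2(FPKM + 0.1), and 5 were too low to test. A member passed the test at a Benjamini-Hochberg adjusted p below 0.05 over all 11924 genes tested, and a fold change above 2 is counted separately. In siControl the mean of 10 of the 34 tested members was under 0.5 FPKM, namely Ifnb1, Irf7, Oas1a, Oas2, Oasl1, Mx2, Usp18, Rsad2, Bst2 and Ifi44. A member that passed the filter only through the groups in which it was high had to differ between groups, so the counts over members are descriptions. Against siControl, 11 of 34 members were higher with siNCOA4 and none was lower, while 11.7% of all genes passed, 4.52% as higher and 7.21% as lower. With DFO, 19 members were higher and 3 lower, against 53.4% of all genes passing, 27.7% higher and 25.7% lower. With both, 28 were higher and 1 was lower, against 48.8% of all genes passing, 25.4% higher and 23.4% lower. Among the 24 tested members at or above 0.5 FPKM in siControl, the numbers that were higher were 9, 13 and 19 in the same order. The median log2 fold change over the 34 members was 0.60 with siNCOA4, 1.13 with DFO and 2.11 with both, and 0.58, 0.99 and 1.98 without Ifnb1 and Usp18, which were listed at 0 in all 3 siControl libraries. Over all genes tested the median was 0.00, -0.01 and 0.01 on the same scale. These 3 comparisons share the siControl libraries.

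**Figure D1:**
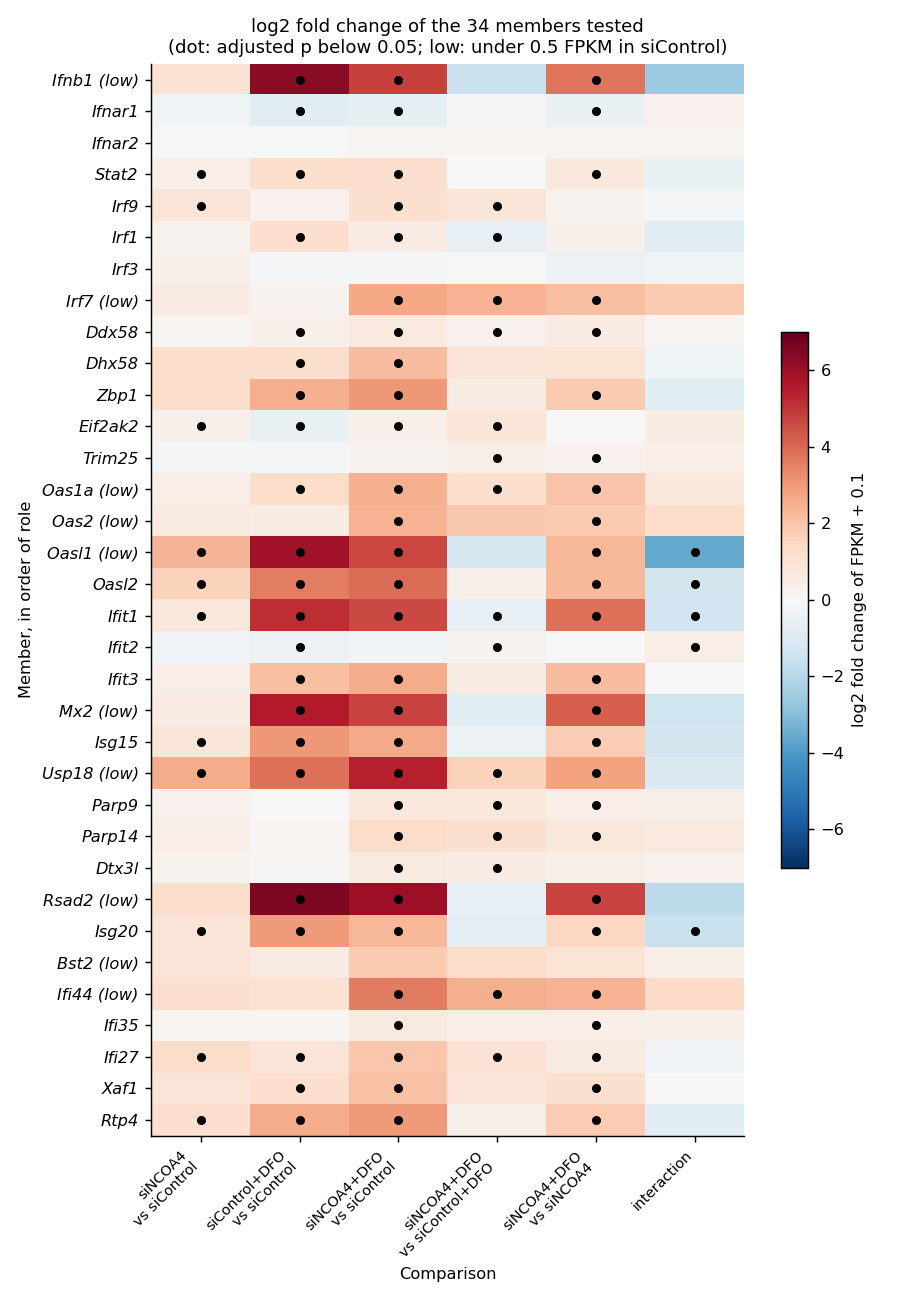
Heat map of the log2 fold change of FPKM + 0.1 (colour, red higher and blue lower) of the 34 members tested (rows, in order of role) in the 5 comparisons and the interaction (columns). Dots mark an adjusted p below 0.05, and "low" marks members whose mean was under 0.5 FPKM in siControl. The column for both treatments against siControl holds 28 higher members and 1 lower member, Ifnar1.

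Interferon beta itself appeared with DFO. Ifnb1, a gene without introns at chr4:88522025-88522774 (minus strand), had an entry of 0 in each siControl library, and the siNCOA4 libraries listed it at 0, 0 and 0.750 FPKM. In siControl+DFO it was listed at 7.94, 11.0 and 5.35 FPKM, and in siNCOA4+DFO at 3.78, 2.20 and 2.28 FPKM. All 6 libraries with DFO lay above all 6 without it, and the siControl+DFO libraries lay above the siNCOA4+DFO libraries without overlap. The test passed for DFO in siControl cells (adjusted p = 9.72e-06) and for DFO in siNCOA4 cells (log2 fold change 3.76 ± 0.69 SE, adjusted p = 0.000835). Within DFO, the mean of 2.75 ± 0.890 FPKM (SD, n = 3) with siNCOA4 and that of 8.09 ± 2.81 FPKM with siControl gave a log2 fold change of -1.50 ± 0.69 (SE), which did not pass (adjusted p = 0.153), and neither did the interaction (-2.53 ± 0.97, adjusted p = 0.191).

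Neither chain of the receptor rose. Ifnar1, the chain that binds the kinase TYK2, was listed at 7.47, 7.97 and 7.68 FPKM in siControl, 6.55, 6.49 and 6.57 in siNCOA4, 4.17, 4.08 and 5.38 in siControl+DFO and 4.54, 4.43 and 5.48 in siNCOA4+DFO. Every DFO library lay below every library without DFO. It fell by 0.76 ± 0.14 (SE) on the log2 scale with DFO (adjusted p = 0.000556) and by 0.67 ± 0.14 with both treatments (adjusted p = 0.0015), and Ifnar1 was the only member tested that was lower with both. Ifnar2, the partner chain, ranged from 9.60 to 15.4 FPKM over the 12 libraries, its groups overlapped in all 5 comparisons of 2 groups, and it passed in none.

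Of the 5 transcription factors, Stat2 and Irf1 rose with DFO, Irf9 rose with siNCOA4, and Irf7 rose with both and passed with neither alone. Stat2, a subunit of the complex that binds the ISRE, was listed at 7.54, 6.50 and 7.10 FPKM in siControl, 9.41, 10.2 and 9.15 in siNCOA4, 15.6, 17.3 and 16.7 in siControl+DFO and 18.1, 15.9 and 15.0 in siNCOA4+DFO. Its 3 siNCOA4 libraries lay above all siControl libraries and below all libraries with DFO. The log2 fold changes were 0.44 ± 0.10 (SE) with siNCOA4 (adjusted p = 0.0171), 1.22 ± 0.10 with DFO (adjusted p = 1.17e-06) and 1.20 ± 0.10 with both (adjusted p = 1.91e-06). Irf9, the DNA-binding subunit of the same complex, was listed at 3.87, 1.80 and 2.18 FPKM in siControl, 3.998, 5.03 and 5.21 in siNCOA4, 3.09, 3.06 and 3.12 in siControl+DFO and 6.30, 6.57 and 4.17 in siNCOA4+DFO. It was higher with siNCOA4 in cells without DFO (log2 fold change 0.90 ± 0.26, adjusted p = 0.0436) and in cells with DFO (0.83 ± 0.26, adjusted p = 0.0473), and the DFO groups overlapped their counterparts without DFO.

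Irf1, an activator that is itself induced by interferons, was listed at 22.5, 21.4 and 20.0 FPKM in siControl, 22.5, 26.2 and 25.9 in siNCOA4, 52.2, 52.4 and 41.2 in siControl+DFO and 37.4, 36.1 and 24.1 in siNCOA4+DFO. It was highest with DFO alone, where it rose by 1.18 ± 0.15 on the log2 scale (adjusted p = 4.17e-05), and within DFO it fell by 0.60 ± 0.15 on the log2 scale with siNCOA4 (adjusted p = 0.0209). Irf7, the factor that amplifies interferon production, was under 0.5 FPKM in all 9 libraries outside the combination, at 0, 0.161 and 0.173 in siControl, 0.154, 0.160 and 0.271 in siNCOA4 and 0.360, 0 and 0.172 in siControl+DFO. In siNCOA4+DFO it was listed at 1.09, 1.35 and 1.03 FPKM, above every other library. The combination passed against siControl (log2 fold change 2.70 ± 0.63, adjusted p = 0.00344), against siControl+DFO (2.43 ± 0.63, adjusted p = 0.0211) and against siNCOA4 (2.10 ± 0.63, adjusted p = 0.0169), while its interaction of 1.83 ± 0.89 did not pass (adjusted p = 0.302). Irf7 met the filter on low values through the combination alone, so the direction of these calls was partly fixed by the filter. With every gene kept that was above 0 FPKM in any library, the 3 adjusted p-values were 0.00323, 0.0215 and 0.016. Irf3, the factor that needs no new synthesis to start the response, ranged from 6.67 to 11.0 FPKM over the 12 libraries and passed in no comparison.

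**Figure D2:**
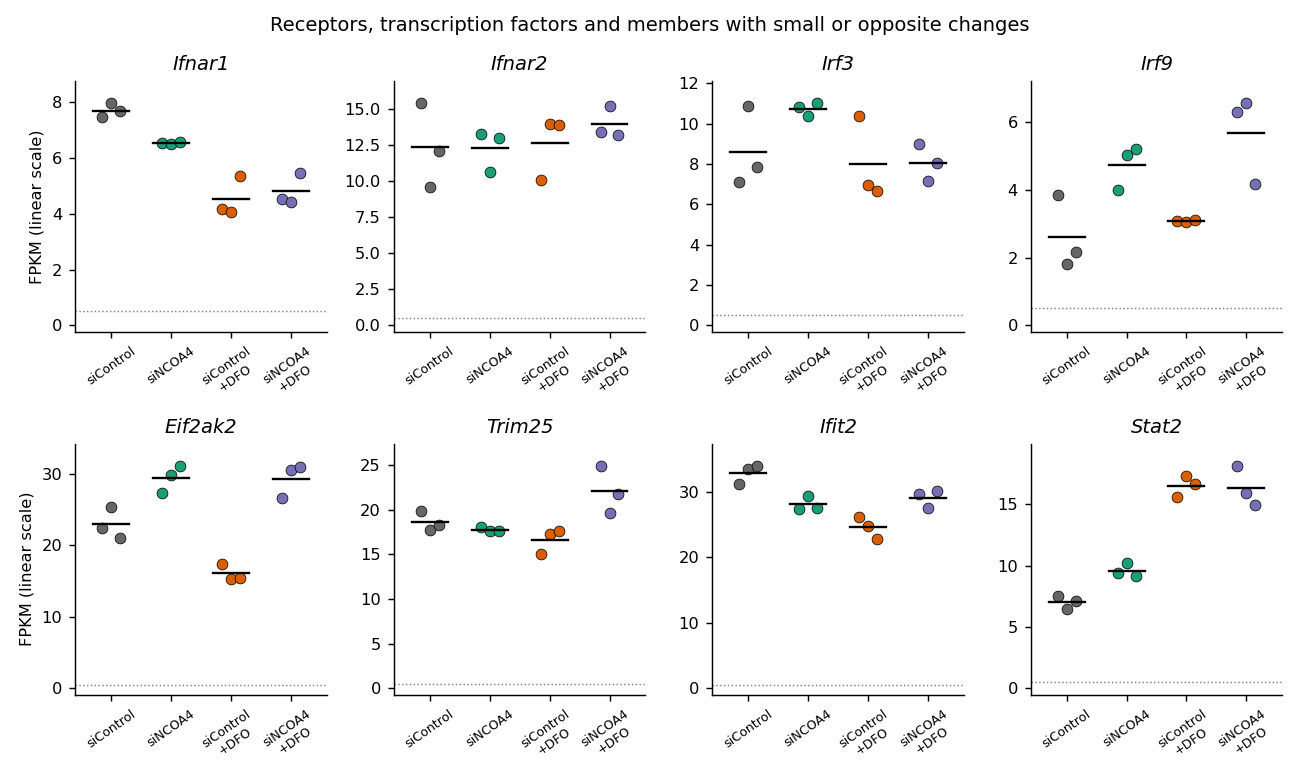
FPKM of Ifnar1, Ifnar2, Irf3, Irf9, Eif2ak2, Trim25, Ifit2 and Stat2 (vertical axes, linear, from 0) in each library of the 4 groups (points, n = 3), with the group mean as a bar and 0.5 FPKM as a dotted line. Eif2ak2 sits at 15.3 to 17.4 FPKM with DFO alone and at 26.5 to 30.9 with siNCOA4 added, and Ifnar1 is lower in the 6 DFO libraries than in the other 6.

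Among the sensors, Zbp1 and Dhx58 rose with DFO, and Eif2ak2 moved in opposite directions with the 2 treatments. Zbp1, which binds nucleic acids in the left-handed Z form, was listed at 1.03, 0.408 and 0.152 FPKM in siControl, 1.18, 0.794 and 1.47 in siNCOA4, 4.31, 1.67 and 3.65 in siControl+DFO and 4.68, 4.63 and 3.54 in siNCOA4+DFO. Its log2 fold change was 2.56 ± 0.49 (SE) with DFO (adjusted p = 0.000872) and 3.05 ± 0.49 with both (adjusted p = 0.000257). Dhx58, which encodes the RNA sensor LGP2, was listed at 0.432, 1.03 and 1.23 FPKM in siControl, 2.87, 1.83 and 1.74 in siNCOA4, 1.90, 2.89 and 1.72 in siControl+DFO and 5.59, 4.92 and 2.49 in siNCOA4+DFO. Both single treatments lay above siControl without overlap and at like levels, with log2 fold changes of 1.24 ± 0.39 for siNCOA4 (adjusted p = 0.0642, not passed) and 1.25 ± 0.39 for DFO (adjusted p = 0.0178). The combination was 2.17 ± 0.39 above siControl on that scale (adjusted p = 0.000634).

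Ddx58, the gene of the RNA sensor RIG-I, rose by small steps. It was listed at 8.38, 7.66 and 9.13 FPKM in siControl, 8.60, 9.40 and 9.17 in siNCOA4, 10.9, 10.5 and 10.5 in siControl+DFO and 14.0, 12.2 and 13.9 in siNCOA4+DFO, and the log2 fold change was 0.34 ± 0.10 (SE) with DFO (adjusted p = 0.0131) and 0.67 ± 0.10 with both (adjusted p = 0.00016). Eif2ak2, the gene of the kinase PKR that halts translation on viral RNA, was listed at 22.4, 25.3 and 21.0 FPKM in siControl, 27.3, 29.8 and 31.1 in siNCOA4, 17.4, 15.3 and 15.4 in siControl+DFO and 26.5, 30.4 and 30.9 in siNCOA4+DFO. It rose by 0.36 ± 0.10 on the log2 scale with siNCOA4 (adjusted p = 0.0326) and fell by 0.51 ± 0.10 with DFO (adjusted p = 0.00083), and under DFO siNCOA4 libraries were 0.86 ± 0.10 above siControl libraries (adjusted p = 0.000289). In siNCOA4 cells the DFO difference for Eif2ak2 was -0.01 ± 0.10 (adjusted p = 0.967), with overlapping groups, and the interaction of 0.50 ± 0.14 did not pass (adjusted p = 0.0785). Trim25, the ubiquitin ligase of RIG-I, was listed at 19.9, 17.7 and 18.3 FPKM in siControl, 18.1, 17.6 and 17.6 in siNCOA4, 15.1, 17.3 and 17.6 in siControl+DFO and 24.9, 19.6 and 21.8 in siNCOA4+DFO. It passed under DFO for siNCOA4 (log2 fold change 0.40 ± 0.10, adjusted p = 0.018) and in siNCOA4 cells for DFO (0.31 ± 0.10, adjusted p = 0.0271).

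The OAS family makes oligoadenylates that switch on RNase L, and its OAS-like members Oasl1 and Oasl2 passed as higher than siControl in all 3 treated groups. Oasl1, which in mouse restrains translation of Irf7 mRNA, was listed at 0, 0.132 and 0.141 FPKM in siControl, 1.26, 0.392 and 1.06 in siNCOA4, 8.89, 11.1 and 11.8 in siControl+DFO and 5.65, 5.37 and 2.85 in siNCOA4+DFO. The 4 groups did not overlap, and the order was siControl, siNCOA4, siNCOA4+DFO and siControl+DFO. On the log2 scale it rose by 2.37 ± 0.44 (SE) with siNCOA4 (adjusted p = 0.00523), by 5.90 ± 0.44 with DFO (adjusted p = 4.65e-07) and by 4.67 ± 0.44 with both (adjusted p = 4.21e-06). The siNCOA4 effect with DFO was 3.60 ± 0.63 below that without DFO on the log2 scale (interaction adjusted p = 0.0168). Over other processing settings with all 12 libraries the interaction ran from -5.02 to -1.85. It did not pass with a pseudocount of 0.01 (adjusted p = 0.059).

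Oasl2, the neighbour of Oasl1 on chromosome 5, was listed at 1.53, 1.05 and 1.12 FPKM in siControl, 4.10, 3.46 and 4.49 in siNCOA4, 17.1, 15.1 and 15.0 in siControl+DFO and 22.1, 19.3 and 18.3 in siNCOA4+DFO. Unlike Oasl1 it had its highest mean in the combination. Its groups did not overlap, in the order siControl, siNCOA4, siControl+DFO and siNCOA4+DFO. The difference with siNCOA4 under DFO passed for neither Oasl1 nor Oasl2. The log2 fold changes were 1.64 ± 0.16 with siNCOA4 (adjusted p = 6.97e-05), 3.58 ± 0.16 with DFO (adjusted p = 7.41e-09) and 3.92 ± 0.16 with both (adjusted p = 7.12e-09), and the interaction was -1.30 ± 0.22 (adjusted p = 0.0163).

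Oas1a, an active synthetase, was listed at 0.188, 0.299 and 0.321 FPKM in siControl, 0.287, 0.445 and 0.533 in siNCOA4, 0.531, 0.903 and 0.957 in siControl+DFO and 1.86, 2.66 and 1.42 in siNCOA4+DFO. It was under 0.5 FPKM without DFO on average and rose with DFO (log2 fold change 1.26 ± 0.37, adjusted p = 0.0128) and with both (2.47 ± 0.37, adjusted p = 0.000159). Of the 75-base windows of Oas1a exons, 47.6% also occur in Oas1g, so its value may hold reads of that copy. Oas2 was under 0.5 FPKM in all libraries outside the combination, at 0.0879, 0 and 0.0751 in siControl, 0.134, 0.209 and 0.0623 in siNCOA4 and 0, 0.211 and 0.224 in siControl+DFO, and was listed at 1.03, 0.512 and 0.663 FPKM in siNCOA4+DFO. The combination passed for Oas2 against siControl (log2 fold change 2.44 ± 0.63, adjusted p = 0.00637) and against siNCOA4 (1.83 ± 0.63, adjusted p = 0.0329), and not against siControl+DFO (1.90 ± 0.63, adjusted p = 0.0574). Like Irf7, Oas2 met the filter through the combination alone. Without that filter the adjusted p was 0.00301 against siControl, 0.0185 against siNCOA4 and 0.0384 against siControl+DFO, which then passed.

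The 3 IFIT genes, whose proteins hold foreign RNA away from ribosomes, lie side by side on chromosome 19 and differed from each other. Ifit1 (chr19:34640871-34650009, plus strand) was listed at 4.85, 3.45 and 4.15 FPKM in siControl and 6.32, 8.10 and 6.98 in siNCOA4. With DFO it reached 159, 161 and 133 FPKM in siControl cells and 122, 98.4 and 89.1 in siNCOA4 cells, the highest levels of any member. The 4 groups did not overlap. On the log2 scale Ifit1 rose by 0.77 ± 0.15 (SE) with siNCOA4 (adjusted p = 0.00598), by 5.16 ± 0.15 with DFO (adjusted p = 4.18e-10) and by 4.60 ± 0.15 with both (adjusted p = 9.95e-10). Under DFO it fell by 0.56 ± 0.15 with siNCOA4 (adjusted p = 0.0233), and the interaction was -1.33 ± 0.21 (adjusted p = 0.0104).

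Ifit3 was listed at 0.882, 0.983 and 0.603 FPKM in siControl, 0.944, 1.54 and 1.00 in siNCOA4, 3.50, 4.53 and 3.45 in siControl+DFO and 5.56, 5.88 and 4.76 in siNCOA4+DFO. The DFO libraries lay above all others, with log2 fold changes of 2.10 ± 0.24 with DFO (adjusted p = 1.62e-05) and 2.59 ± 0.24 with both (adjusted p = 3.93e-06). Of its 75-base windows, 41.1% also occur in Ifit3b. Ifit2 went the other way, at 31.1, 33.5 and 33.9 FPKM in siControl, 27.4, 29.3 and 27.5 in siNCOA4, 26.2, 24.7 and 22.7 in siControl+DFO and 29.6, 27.5 and 30.1 in siNCOA4+DFO. It was highest in siControl and fell by 0.42 ± 0.08 on the log2 scale with DFO (adjusted p = 0.000599). Under DFO, Ifit2 was 0.25 ± 0.08 higher with siNCOA4 (adjusted p = 0.0471), and the interaction was 0.47 ± 0.11 (adjusted p = 0.047).

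Mx2, a dynamin-like GTPase that blocks viruses, was listed at 0.287, 0 and 0.245 FPKM in siControl and 0.220, 0.228 and 0.306 in siNCOA4, under 0.5 FPKM in each. With DFO it was listed at 11.4, 13.2 and 8.91 FPKM in siControl cells and 10.2, 6.35 and 3.56 in siNCOA4 cells. The gap between cells with and without DFO was clear in both siRNA groups, with log2 fold changes of 5.55 ± 0.49 (SE) in siControl cells (adjusted p = 1.77e-06) and 4.16 ± 0.49 in siNCOA4 cells (adjusted p = 3.25e-05). The siNCOA4+DFO and siControl+DFO libraries overlapped and did not pass (adjusted p = 0.268).

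The ubiquitin-like modifier Isg15 and Usp18, the protease that removes it and also damps the receptor, were both higher in all 3 treated groups but were ordered differently. Isg15 was listed at 6.95, 12.3 and 11.95 FPKM in siControl, 13.9, 18.9 and 24.2 in siNCOA4, 82.7, 91.1 and 76.1 in siControl+DFO and 75.4, 65.7 and 51.4 in siNCOA4+DFO. Its level was highest with DFO alone, and every siNCOA4 library lay above every siControl library. The log2 fold changes of Isg15 were 0.87 ± 0.23 (SE) with siNCOA4 (adjusted p = 0.0315), 3.03 ± 0.23 with DFO (adjusted p = 5.63e-07) and 2.64 ± 0.23 with both (adjusted p = 2.47e-06). Usp18 had an entry of 0 in each siControl library and was listed at 0.923, 0.477 and 0.286 FPKM in siNCOA4, 1.52, 1.29 and 1.20 in siControl+DFO and 5.98, 2.85 and 4.56 in siNCOA4+DFO. The 4 groups did not overlap, and the combination was highest. Against siControl the adjusted p of Usp18 was 0.00164 with siNCOA4, 7.14e-06 with DFO and 5.93e-07 with both, and siNCOA4 raised it further under DFO (log2 fold change 1.61 ± 0.40, adjusted p = 0.0181).

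The 3 tested genes of the ADP-ribosylation group passed with both treatments and with neither alone. Parp14, an ADP-ribosyltransferase, was listed at 1.56, 1.54 and 1.53 FPKM in siControl, 2.32, 2.22 and 2.02 in siNCOA4, 1.86, 1.73 and 1.52 in siControl+DFO and 4.31, 3.75 and 3.51 in siNCOA4+DFO. Parp9 was listed at 7.74, 6.40 and 7.59 FPKM in siControl, 7.75, 8.26 and 10.8 in siNCOA4, 7.30, 7.35 and 7.31 in siControl+DFO and 11.7, 10.3 and 14.6 in siNCOA4+DFO. Dtx3l, the ubiquitin ligase that works as a complex with PARP9, was listed at 6.43, 6.93 and 4.82 FPKM in siControl, 7.35, 6.33 and 7.35 in siNCOA4, 6.30, 5.77 and 7.11 in siControl+DFO and 9.58, 8.20 and 9.85 in siNCOA4+DFO. For each of these 3 genes the siNCOA4+DFO libraries lay above the siControl and the siControl+DFO libraries without overlap. Against siControl the combination was higher by log2 fold changes of 1.26 ± 0.18 (SE) for Parp14 (adjusted p = 8.67e-05), 0.73 ± 0.16 for Parp9 (adjusted p = 0.00194) and 0.61 ± 0.15 for Dtx3l (adjusted p = 0.00556), and none of the 3 passed for either single treatment. Under DFO all 3 passed for siNCOA4 (log2 fold changes 1.13 ± 0.18, 0.71 ± 0.16 and 0.52 ± 0.15; adjusted p = 0.00162, 0.00938 and 0.0374), while none passed in the interaction. Parp9 and Dtx3l share a start region on opposite strands, where 9.4% of Parp9 exon bases overlap Dtx3l, and although the library kit kept the strand, whether counting used it is not given in the sources used here.

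Among the other effectors, Rsad2 and Isg20 followed Ifnb1 in being highest with DFO alone. Rsad2, which encodes the radical enzyme viperin that makes a chain-terminating nucleotide, was listed at 0.359, 0.143 and 0 FPKM in siControl, 0.618, 0.142 and 0.764 in siNCOA4, 23.1, 20.4 and 18.9 in siControl+DFO and 19.2, 13.7 and 10.5 in siNCOA4+DFO. Its rise with DFO, a log2 fold change of 6.54 ± 0.54 (SE, adjusted p = 9.77e-07), started from a siControl level under 0.5 FPKM. Isg20, an RNA exonuclease, was listed at 2.23, 3.05 and 4.48 FPKM in siControl, 4.78, 5.71 and 7.50 in siNCOA4, 22.2, 28.4 and 26.3 in siControl+DFO and 16.8, 19.0 and 12.8 in siNCOA4+DFO. The groups of Isg20 did not overlap, it rose with siNCOA4 (0.89 ± 0.24, adjusted p = 0.0321) and with DFO (2.99 ± 0.24, adjusted p = 7.99e-07), and its interaction was -1.56 ± 0.34 (adjusted p = 0.039).

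**Figure D3:**
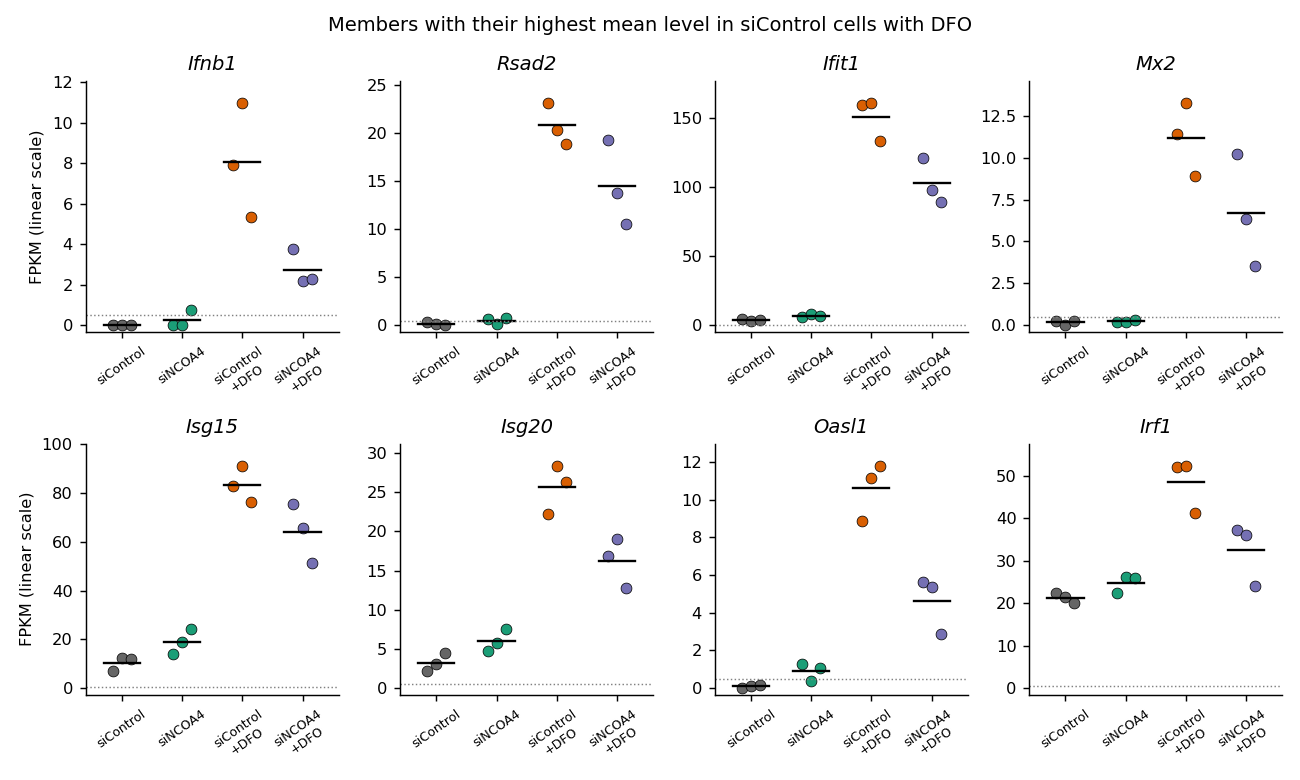
FPKM of Ifnb1, Rsad2, Ifit1, Mx2, Isg15, Isg20, Oasl1 and Irf1 (vertical axes, linear, from 0) in each library of the 4 groups (points, n = 3), with the group mean as a bar and 0.5 FPKM as a dotted line. All 8 genes have their highest mean in siControl+DFO, and of these only Ifit1 and Irf1 passed the test as lower in siNCOA4+DFO than in siControl+DFO.

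Ifi27, Rtp4, Xaf1 and Ifi44 had their highest mean in the combination. Against siControl+DFO the combination passed for Ifi27 and Ifi44. It did not pass for Xaf1 or for Rtp4, whose libraries in these groups overlapped. Ifi27, a small interferon-induced protein of mitochondria, was listed at 8.64, 16.4 and 10.4 FPKM in siControl, 24.8, 25.2 and 33.7 in siNCOA4, 20.9, 18.8 and 23.7 in siControl+DFO and 45.3, 44.6 and 40.0 in siNCOA4+DFO. Here siNCOA4 raised the level by over 2-fold both without and with DFO, with log2 fold changes of 1.27 ± 0.20 (SE) without DFO (adjusted p = 0.00175) and 1.04 ± 0.20 with DFO (adjusted p = 0.00494). Rtp4, a receptor chaperone, was listed at 1.60, 1.27 and 0.979 FPKM in siControl, 2.10, 3.62 and 3.42 in siNCOA4, 9.95, 8.64 and 6.03 in siControl+DFO and 13.8, 10.9 and 7.92 in siNCOA4+DFO. Both single treatments passed for Rtp4, with log2 fold changes of 1.17 ± 0.28 for siNCOA4 (adjusted p = 0.0183) and 2.58 ± 0.28 for DFO (adjusted p = 8.86e-06).

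Xaf1, a binding partner of the apoptosis inhibitor XIAP, was listed at 3.91, 1.59 and 1.82 FPKM in siControl, 4.30, 4.11 and 4.54 in siNCOA4, 5.71, 6.54 and 3.67 in siControl+DFO and 11.3, 9.53 and 8.29 in siNCOA4+DFO. It rose with DFO (log2 fold change 1.16 ± 0.30, adjusted p = 0.00585) and with both (2.05 ± 0.30, adjusted p = 0.000118). Under DFO its difference of 0.89 with siNCOA4 did not pass (adjusted p = 0.0607). Ifi44 was under 0.5 FPKM in 8 of the 9 libraries outside the combination, at 0.118, 0 and 0.101 in siControl, 0.271, 0.281 and 0.252 in siNCOA4 and 0.112, 0.569 and 0.201 in siControl+DFO, and was listed at 2.56, 2.17 and 1.28 in siNCOA4+DFO. The combination was higher for Ifi44 than siControl (log2 fold change 3.63 ± 0.53, adjusted p = 0.000119), siControl+DFO (2.53 ± 0.53, adjusted p = 0.00739) and siNCOA4 (2.46 ± 0.53, adjusted p = 0.00253). Ifi44 had a mean of at least 0.5 FPKM in the combination alone, and without the filter on low values these adjusted p-values were 0.000162, 0.00897 and 0.00285.

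Ifi35, whose protein pairs with that of Nmi, was listed at 10.8, 13.7 and 14.5 FPKM in siControl, 12.8, 13.2 and 17.8 in siNCOA4, 15.3, 13.8 and 13.0 in siControl+DFO and 22.1, 16.6 and 21.0 in siNCOA4+DFO, and passed for the combination against siControl (log2 fold change 0.61 ± 0.16, adjusted p = 0.00645). Bst2, the gene of the virus tether tetherin, was listed at 0.526, 0 and 0.452 FPKM in siControl, 0.805, 0.414 and 0.377 in siNCOA4, 2.00, 0.425 and 0 in siControl+DFO and 2.38, 0.885 and 0.575 in siNCOA4+DFO. The siNCOA4+DFO libraries of Bst2 lay above the siControl libraries, but the log2 difference of 1.86 ± 1.00 (SE) did not pass (adjusted p = 0.145).

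**Figure D4:**
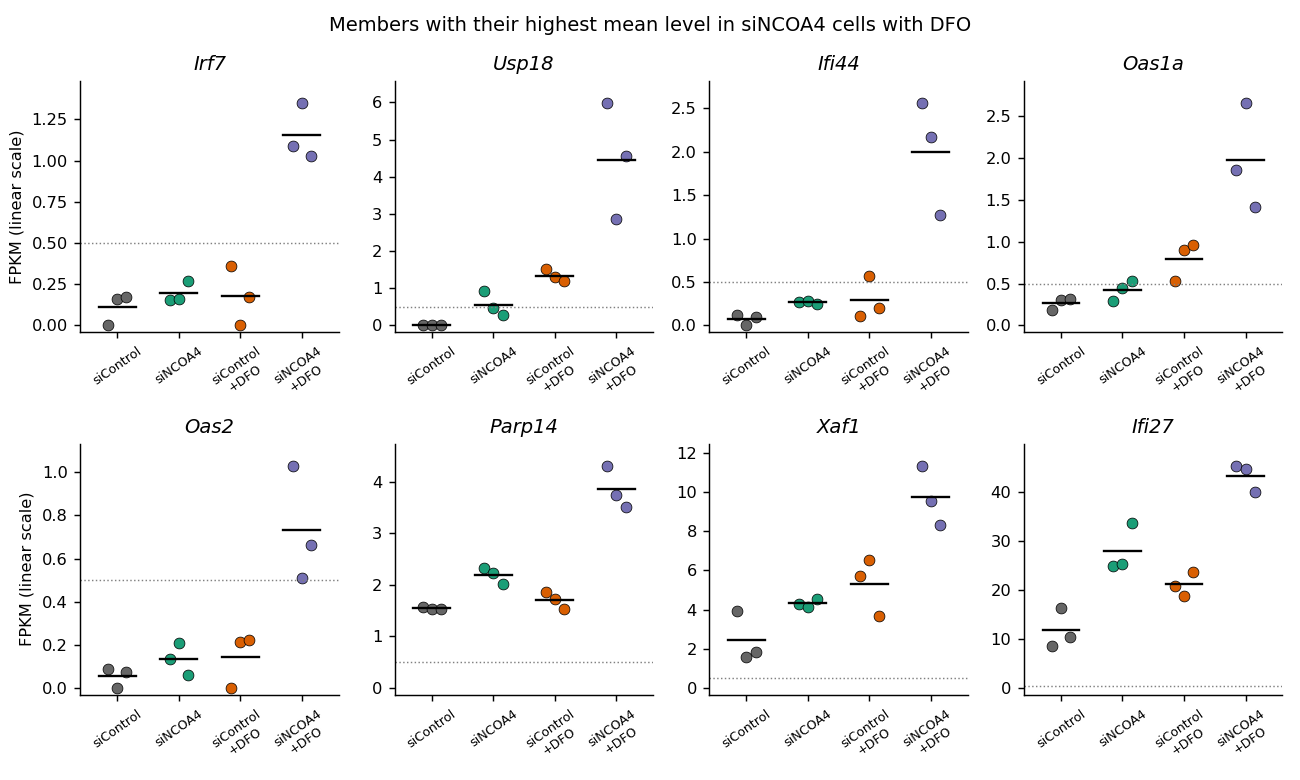
FPKM of Irf7, Usp18, Ifi44, Oas1a, Oas2, Parp14, Xaf1 and Ifi27 (vertical axes, linear, from 0) in each library of the 4 groups (points, n = 3), with the group mean as a bar and 0.5 FPKM as a dotted line. In each panel the siNCOA4+DFO libraries lie above the libraries of the other 3 groups, and for Irf7 and Oas2 they are the only libraries above 0.5 FPKM.

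Too low to be tested were 5 members, all under 0.5 FPKM in more than 9 libraries. The RNA sensor Ifih1 was listed at 0 in all 12. Mx1 ranged from 0 to 0.507 FPKM, Oas3 from 0 to 0.257, Parp12 from 0 to 0.0882 and the mitochondrial nucleotide kinase Cmpk2 from 0 to 0.0894. Cmpk2 stayed near 0 in all groups although Rsad2, its neighbour at chr12:26442746-26456452, reached 23.1 FPKM. Mx2 likewise reached 13.2 FPKM while Mx1 beside it on chromosome 16 was listed at 0.507 or less.

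The lowest tested members rest on few reads. Scaled for relative depth, low values of 11 members were whole multiples of a fixed step to within 0.05 of a step, as counts of whole reads would give. In these steps Usp18 amounted to 0, 0 and 0 in siControl, 6, 3 and 2 in siNCOA4 and 8, 8 and 7 in siControl+DFO, and to 17 and 21 in siNCOA4+DFO replicates 2 and 3. Oas1a amounted to 1 to 2 steps in siControl, 2 to 4 in siNCOA4, 3 to 6 in siControl+DFO and 7 to 17 in siNCOA4+DFO. Oas2 and Ifi44 amounted to at most 1 step in siControl, and to 7 to 13 and 10 to 24 steps in siNCOA4+DFO. Oasl1 amounted to 0, 1 and 1 steps in siControl and to 10, 3 and 9 in siNCOA4. Bst2 never exceeded 5 steps.

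By comparison, 11 members were higher in siNCOA4 than in siControl libraries without DFO. These were Stat2, Irf9, Eif2ak2, Oasl1, Oasl2, Ifit1, Isg15, Usp18, Isg20, Ifi27 and Rtp4. Of them 5 also had a fold change above 2, and 3 of the 5 had a siControl mean of at least 0.5 FPKM. Of all genes 1.78% passed both, and 0.805% did so as higher. Of the 34 fitted differences 31 were above 0, while the median over all genes tested was 0.00. The calls for Oasl1, Oasl2, Ifit1, Usp18 and Ifi27 held whichever library was left out. The other 6 missed the threshold in 2 (Stat2), 3 (Isg15 and Rtp4), 4 (Eif2ak2 and Isg20) and 10 (Irf9) of the 12 fits without 1 library, with their highest adjusted p at 0.0704 for Stat2 without siNCOA4 replicate 2, 0.145 for Irf9 without siControl replicate 2, 0.115 for Eif2ak2, 0.117 for Isg15 and 0.118 for Isg20 without siNCOA4 replicate 3, and 0.0774 for Rtp4 without siNCOA4 replicate 2. The number of members called fell to 5 without siNCOA4 replicate 2 and to 6 without siNCOA4 replicate 3. It was also 6 when the spread was estimated from the compared groups alone.

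With DFO in siControl cells, 19 members rose and Ifnar1, Eif2ak2 and Ifit2 fell. A fold change above 2 was found for 17 members, all of them higher (11.1% of all genes passed both in that direction). Of the 17, 11 had a siControl mean of at least 0.5 FPKM. The calls held whichever library was left out, except for Ddx58 (adjusted p = 0.058 without siControl replicate 2) and Dhx58 (adjusted p = 0.0743 without siControl replicate 1). With DFO in siNCOA4 cells, 24 members were higher and 1 was lower, against 42.7% of all genes passing, 23.1% higher and 19.6% lower. Of the 34 members, 17 rose with DFO under both siRNAs, as did 19.6% of all genes. In siNCOA4 cells 7 of the 25 calls missed the threshold in 1 to 4 fits without 1 library, with the highest adjusted p at 0.0757 for Ifnar1 without siNCOA4+DFO replicate 2, 0.0507 for Irf7, 0.127 for Ifi35 and 0.0721 for Ifi27 without siNCOA4 replicate 1, 0.117 for Trim25 without siNCOA4+DFO replicate 1, 0.105 for Oas2 without siNCOA4 replicate 3 and 0.135 for Parp9 without siNCOA4+DFO replicate 3.

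Under both treatments 22 members passed with a fold change above 2, all of them higher, against 9.24% of all genes in that direction. Of the 22, 13 had a siControl mean of at least 0.5 FPKM. The 29 calls against siControl held in every fit without 1 library that included the gene, where Irf7 and Oas2 were not fitted when a siNCOA4+DFO library was left out because they then missed the filter. The highest group mean lay in siNCOA4+DFO for 21 of the 34 members and in siControl+DFO for 9. Irf7 and Oas2, among the 21, met the filter through siNCOA4+DFO alone. No such share over all genes was computed, so these counts are descriptions.

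Within DFO most of the calls for siNCOA4 were upward. There 13 members were higher (38.2%) and 2 were lower (5.88%), against 16.5% of all genes passing, 6.22% higher and 10.2% lower. A fold change above 2 was found for 6, all higher, against 2.09% of all genes and 1.07% in that direction. Of these 6, 2 had a siControl mean of at least 0.5 FPKM and 4 were under it. Irf7 met the filter on low values through siNCOA4+DFO alone, and Ifi44 had a mean of at least 0.5 FPKM only there. The direction of such calls was partly fixed by the filter, so the count of 6 is a description. The higher members were Irf9, Irf7, Ddx58, Eif2ak2, Trim25, Oas1a, Ifit2, Usp18, Parp9, Parp14, Dtx3l, Ifi44 and Ifi27, and the lower members were Irf1 and Ifit1. Ifnb1, Isg15, Mx2, Rsad2, Isg20 and Oasl1 had negative differences, of -1.50 to -0.39 on the log2 scale, that did not pass. Calls that held whichever library was left out were those of Eif2ak2, Parp9, Parp14, Ifi44 and Ifi27. The other 10 missed the threshold in some of the 12 fits without 1 library, Oas1a in 11, Ifit2 in 10, Irf9 in 9, Ddx58 in 8, Dtx3l in 6, Ifit1 and Usp18 in 4, Irf1 in 3, Trim25 in 2 and Irf7 in 1 of the 9 that included it. Their highest adjusted p was 0.134 for Irf9 and 0.151 for Oas1a without siNCOA4+DFO replicate 2, 0.0776 for Irf1, 0.0736 for Irf7 and 0.121 for Dtx3l without siControl+DFO replicate 2, 0.118 for Ddx58 and 0.0884 for Ifit1 without siNCOA4+DFO replicate 3, 0.0689 for Trim25 without siControl+DFO replicate 1, 0.152 for Ifit2 without siControl+DFO replicate 3 and 0.0673 for Usp18 without siNCOA4+DFO replicate 1. The number of members called was 8 without siControl+DFO replicate 1, 6 without siControl+DFO replicate 2, and 7 without siNCOA4+DFO replicate 1 or replicate 3.

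The interaction, the siNCOA4 effect with DFO minus that without, passed for 5 of 34 members and for 2.10% of all genes. It was negative for Oasl1, Oasl2, Ifit1 and Isg20, each by more than 2-fold, and positive for Ifit2. Of all genes 1.43% passed as negative. A change above 2-fold was found for 0.813% of all genes in either direction, and for 0.252% as positive. The negative sign of the 4 means that on the log2 scale each rose less with DFO in siNCOA4 cells than in siControl cells. This need not hold in FPKM. Means of Oasl2 with and without DFO were 15.7 and 1.23 FPKM in siControl cells, and 19.9 and 4.02 FPKM in siNCOA4 cells. Without DFO all 4 passed as higher in siNCOA4 than in siControl, and the part of that level in the interaction was not tested. Oasl1 and Ifit1 held whichever library was left out, but Oasl1 did not pass with a pseudocount of 0.01 (adjusted p = 0.059). Oasl2 missed the threshold in 1 fit (adjusted p = 0.0521 without siControl+DFO replicate 1). The Ifit2 interaction passed in none of the 12 fits without 1 library, and that of Isg20 missed in 10 of 12, with the highest adjusted p at 0.111 and 0.089, both without siNCOA4 replicate 3. The number called was 2 to 4 with 1 library left out, and 2 without siControl+DFO replicate 1.

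**Figure D5:**
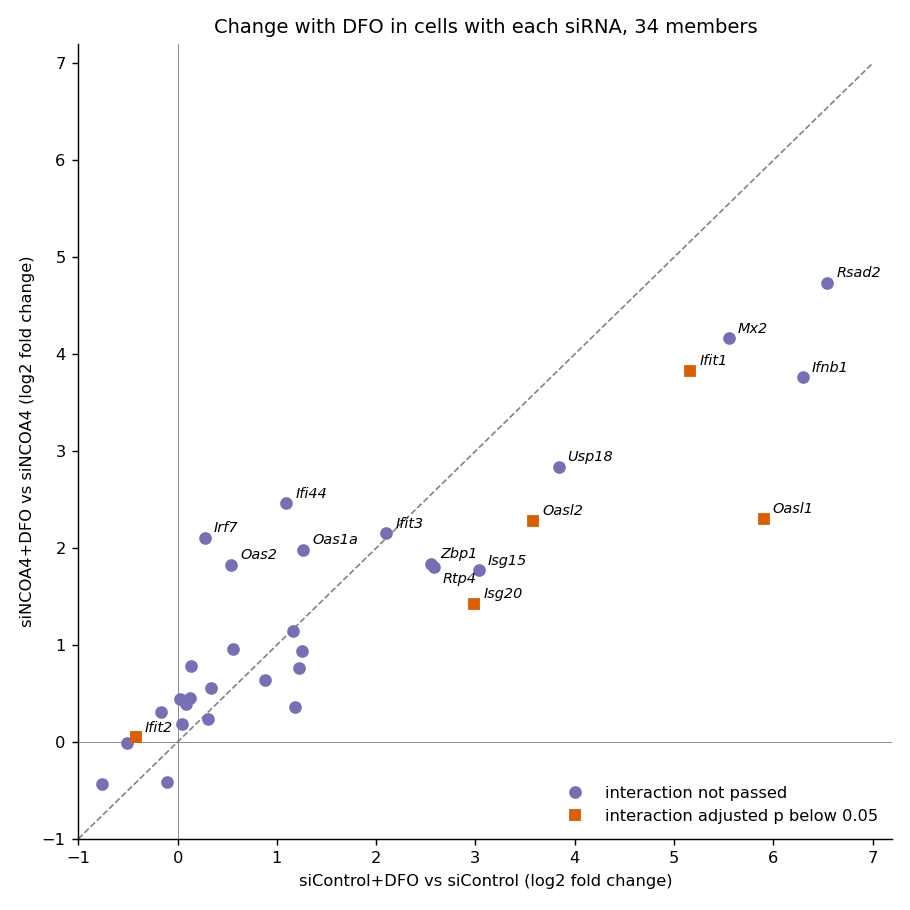
Log2 fold change with DFO in siControl cells (horizontal) and in siNCOA4 cells (vertical) for the 34 members tested, each a point, with the line of equal change dashed. Orange squares mark the 5 members whose interaction passed, of which Oasl1, Oasl2, Ifit1 and Isg20 lie below the line and Ifit2 above it, and the 2 axes share no library.

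Members with and without an ISRE core were found among those that rose with DFO and those that did not. Of the 19 that rose with DFO in siControl cells, 13 had a RefSeq promoter and 7 of these held the core, namely Stat2, Ddx58, Oas1a, Ifit1, Ifit3, Isg15 and Rsad2. Of the 15 tested members that did not rise, 12 had a promoter and 2 held it, Eif2ak2 and Bst2. Among the 4 of 5 untested members with a promoter, Ifih1 and Oas3 held it. Oasl1, Oasl2 and Isg20 had none in this stretch and rose with DFO.

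Genes of the pathway outside the list were counted in 4 groups of 85 symbols, of which 58 were tested. With siNCOA4, 6 of 58 were higher and 1 lower, with DFO 30 were higher and 8 lower, and with both 30 were higher and 8 lower. As shares, 10.3% were higher and 1.72% lower with siNCOA4, against 4.52% and 7.21% of all genes, and 51.7% were higher and 13.8% lower both with DFO (27.7% and 25.7% of all genes) and with both (25.4% and 23.4%). The median log2 fold change over the 58 was 0.11, 0.33 and 0.48, below that of the members in each case. Of 20 further interferon genes, 2 were tested. Ifna4, an interferon alpha gene of the same chromosome 4 cluster as Ifnb1, was listed at 0 in all 6 libraries without DFO, at 1.25, 1.59 and 1.68 FPKM in siControl+DFO (adjusted p = 9.94e-06) and at 0.592, 0.552 and 0.718 in siNCOA4+DFO (adjusted p = 0.000177). The order of its groups was that of Ifnb1. Ifne was listed at 1.26, 1.50 and 1.08 FPKM in siControl and 0.482, 0 and 0 in siNCOA4. With DFO it was listed at 0, 0.509 and 1.07 in siControl+DFO and 0.569, 0 and 0 in siNCOA4+DFO. It passed as lower in siNCOA4+DFO (adjusted p = 0.0355), a call lost without any of 5 libraries (highest adjusted p = 0.112 without siNCOA4+DFO replicate 2). Its log2 difference of -2.93 with siNCOA4 alone did not pass.

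Another 14 tested genes were sensors outside the list and genes of the steps from sensors to the interferon genes. Of these, 1 was higher with siNCOA4, 5 were higher and 2 lower with DFO, and 6 were higher and 2 lower with both. These were 7.14% higher with siNCOA4, 35.7% higher with DFO and 42.9% higher with both, where the shares of all genes were 4.52%, 27.7% and 25.4%. The shares lower were 14.3% with DFO and 14.3% with both, against 25.7% and 23.4% of all genes. Tlr3, the endosomal receptor for RNA duplexes, rose by 1.44 on the log2 scale with siNCOA4 (adjusted p = 0.00785) and with both by 1.19 (adjusted p = 0.00479). Ikbke, a kinase of IRF3, and the ubiquitin ligase Traf6 rose with DFO by 1.00 (adjusted p = 0.000588) and 0.74 (adjusted p = 0.000405) on the log2 scale. Mavs, the mitochondrial adaptor of RIG-I, fell by 0.85 with DFO (adjusted p = 2.78e-05) and by 0.80 with both (adjusted p = 4.97e-05).

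Of 13 tested signalling genes, 1 was lower with siNCOA4, 7 were higher with DFO, 5 were higher and 2 lower with both, and 5 were lower for siNCOA4 under DFO. The shares were 7.69% lower with siNCOA4 (7.21% of all genes) and 53.8% higher with DFO (27.7% of all genes). With both they were 38.5% higher and 15.4% lower, against 25.4% and 23.4% of all genes. For siNCOA4 under DFO 38.5% were lower, where 10.2% of all genes were lower. Irf2, a repressor and partner of IRF1 sites, ranged from 8.79 to 8.96 FPKM in siControl and from 31.5 to 32.3 in siControl+DFO (log2 fold change 1.84, adjusted p = 1.03e-07), and from 18.1 to 26.3 in siNCOA4+DFO (1.29, adjusted p = 2.67e-06). The feedback inhibitors Socs1 and Socs3 rose with DFO by 1.06 (adjusted p = 0.0138) and 0.94 (adjusted p = 3.96e-05), and Socs1 fell by 1.20 on the log2 scale for siNCOA4 under DFO (adjusted p = 0.0232). The Socs1 calls missed the threshold without siControl+DFO replicate 2, at adjusted p = 0.0526 and 0.0852, and in some fits without 1 other library. Of the interferon gamma receptor chains, Ifngr1 fell by 0.60 with siNCOA4 (adjusted p = 0.00436) and by 0.63 for siNCOA4 under DFO (adjusted p = 0.00288), and Ifngr2 rose by 0.71 with both (adjusted p = 0.000106). Il10rb fell by 0.56 with both (adjusted p = 0.0294), a call lost without siNCOA4+DFO replicate 1 (adjusted p = 0.109).

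Of 29 tested interferon-stimulated genes outside the list, 5 were higher with siNCOA4, and 17 were higher and 6 lower with DFO. With both, 18 were higher and 3 lower. The shares higher were 17.2%, 58.6% and 62.1% in the same order, against 4.52%, 27.7% and 25.4% of all genes. The shares lower were 20.7% with DFO and 10.3% with both, against 25.7% and 23.4% of all genes. Ifi202b, a DNA-binding protein of the p200 family, was listed at 1.58 to 3.90 FPKM in siControl, 11.1 to 11.98 in siNCOA4, 55.0 to 70.8 in siControl+DFO and 42.7 to 58.3 in siNCOA4+DFO. Its log2 fold changes were 2.29 with siNCOA4 (adjusted p = 0.00015), 4.67 with DFO (adjusted p = 2.9e-08) and 4.33 with both (adjusted p = 8.3e-08), and Ifi202b belongs to a family of near copies. Ifi203 of the same family rose with siNCOA4 by 1.72 (adjusted p = 0.000189) and Samd9l, an antiviral restriction factor, by 1.03 (adjusted p = 7.44e-05). Both had higher means with DFO than with siNCOA4 alone. Group means of Ifi203 in siControl, siNCOA4, siControl+DFO and siNCOA4+DFO were 0.728, 2.63, 6.30 and 5.75 FPKM. In the same order those of Samd9l were 10.6, 21.9, 28.8 and 38.1 FPKM. Ddx60, a helicase, rose with DFO by 3.26 (adjusted p = 6.55e-05) from at most 0.0891 FPKM in siControl. Ifitm1, whose protein blocks virus entry, ranged from 0.615 to 1.46 FPKM in siControl and had entries of 0 in the 6 DFO libraries (adjusted p = 0.00157 with DFO and 0.00175 with both). Under DFO, siNCOA4 raised Sp100, a nuclear body protein, by 1.40 (adjusted p = 0.00544) and Ube2l6, the conjugating enzyme of ISG15, by 1.17 (adjusted p = 0.0125). Trex1, the DNase that clears cytosolic DNA, fell by 1.40 (adjusted p = 0.00566) on the log2 scale. In siControl, siNCOA4, siControl+DFO and siNCOA4+DFO the means of Ube2l6 were 5.30, 7.51, 2.17 and 4.82 FPKM. Those of Trex1 were 3.48, 3.40, 8.06 and 2.91 FPKM, so DFO alone moved each gene the opposite way. The Ube2l6 call reached an adjusted p of 0.0522 without siControl+DFO replicate 2 and also missed the threshold without siNCOA4+DFO replicate 3.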

How the data were processed

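The transcriptome of HT22 cells was sequenced in 12 libraries, with groups and replicate numbers taken from the sample labels. Expression is given as the FPKM that the authors deposited for each gene, with a table for each library. RNA was converted with a low-input kit that keeps the strand and was read as 75-bp pairs. The submitters' processing notes name Trimmomatic 0.33, FastQC, HISAT2 2.1.0, featureCounts, edgeR and the build mm10. The annotation and the tool that gave the FPKM are not given in the sources used here. Of 24347 entries, 4 that shared a name were left out. FPKM carries no depth, so no counting interval can be given, and reads that match near-identical copies may be lost or split.

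The deposited FPKM were not scaled further. A gene was tested where it reached 0.5 FPKM in 3 or more libraries (11924 genes). The test used log2(FPKM + 0.1), which understates changes of low genes, with limma 3.58.1 in R 4.3.3, a means model over 4 groups and empirical Bayes with trend (8 residual degrees of freedom, 4.07 prior). Benjamini-Hochberg adjustment was made over all genes of a comparison. The p-values measure the spread between the labelled biological replicates. The fit was also run on simulated log-normal values with known changes set in the siNCOA4 group alone. No DFO effect was simulated, so that run did not cover the wide changes with DFO. With 3 against 3 libraries an exact permutation test cannot go below p = 0.1, so none was used.

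Members and gene lists were chosen with earlier results of these data known. Values of every library are given for members that passed in any comparison, or had a fold change above 2 without overlap. Other members are given by range, and outside the list the 3 largest passed changes per group of genes and comparison are named. The values of 1 signalling gene outside the list are not reported here. Gene spans are from GENCODE on GRCm38. Pseudocounts of 1 and 0.01, other filters, scalings and moderation, a replicate block and leaving out each library were tried.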

Additional observations from a re-analysis of the deposited data

Results flagged for a closer look

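The siNCOA4 effect differed between cells with and without DFO, by the interaction term of the limma fit, in 5 members. The siNCOA4 effect with DFO minus that without DFO, on the log2 scale, was -3.6 for Oasl1, -1.3 for Oasl2, -1.33 for Ifit1, -1.56 for Isg20 and 0.47 for Ifit2. Oasl1 was 2.37 higher with siNCOA4 without DFO, where every siNCOA4 library exceeded every siControl library, and had a difference of -1.23 with DFO that did not pass (adjusted p = 0.0773). Ifit1 rose by 0.77 with siNCOA4 without DFO and fell by 0.56 with it, and it is the member of the 5 whose interaction passed under every alternative tried. Oasl2 rose by 1.64 without DFO, and its difference of 0.34 with DFO did not pass (adjusted p = 0.166). Isg20 rose by 0.89 without DFO and had a difference of -0.67 with DFO (adjusted p = 0.0764, not passed). Ifit2 had a difference of -0.23 without DFO that did not pass (adjusted p = 0.0814) and was 0.25 higher with it. With 1 library left out, the Ifit2 interaction passed in none of 12 fits and that of Isg20 missed in 10 of 12.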

How the results depend on the processing

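The 29 calls with both treatments against siControl and 19 of the 22 calls with DFO held under every alternative that included the gene. Irf7, Oas1a, Oas2 and Ifi44 were not tested with a minimum of 2 FPKM, nor Irf7 and Oas2 when a siNCOA4+DFO library was left out, nor Oasl1 and Usp18 with siNCOA4 when the compared groups were fitted alone. With siNCOA4 without DFO, 11 members were called, and 4 of them (Oasl1, Oasl2, Ifit1 and Ifi27) held in the same sense. The count fell to 6 with the compared groups alone and to 5 with a fold change above 2, and was 5 to 12 with 1 library left out. For siNCOA4 under DFO, 15 members were called, 6 with a fold change above 2 and 6 to 19 with 1 library left out, and 14 other pathway genes were called, 7 to 14 with 1 library left out. In the interaction, 5 members were called, 3 without the filter, with quantile normalization or without the trend, and 2 to 4 with 1 library left out, and 7 other pathway genes were called, 4 with quantile normalization, 3 with the replicate block and 2 to 5 with 1 library left out. Over all genes, 250 passed in the interaction, and 165 with quantile normalization, 164 without the trend and as few as 76 without siControl+DFO replicate 1. For siNCOA4 under DFO, 1963 genes passed, and 1242 with the compared groups alone and 1201 without siControl+DFO replicate 2. For siNCOA4 without DFO, 1399 genes passed, and 724 without siNCOA4 replicate 2. Replicate numbers did not pair the libraries. Over 18 pairs of libraries with the same number in different groups, the correlation of deviations from the group means ran from -0.127 to 0.116 (median -0.012), and 3 of 12 libraries correlated best with their own number. With the replicate block 9 members were called with siNCOA4, 22 with DFO, 29 with both, 12 for siNCOA4 under DFO, 25 for DFO in siNCOA4 cells and 4 in the interaction. Of the values that changed sign, none had passed the test, and the cause was not tested. These were Oas2 with DFO (-0.26 on the log2 scale with quantile normalization), Mx2 with siNCOA4 (-0.068 without siControl replicate 2, and up to 0.91 with another library left out), the Usp18 interaction (0.56 with a pseudocount of 1) and Bst2 with DFO (-0.30 without siControl replicate 2, and from -0.51 without siControl+DFO replicate 1 to 1.69 without replicate 3). Usp18 with siNCOA4 did not pass with a pseudocount of 1 (adjusted p = 0.0786), nor did Oas1a with DFO under quantile normalization (adjusted p = 0.0675). The low members rest on few reads, and no limit of detection can be given from FPKM.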
